A study of Polypedilum vanderplanki with 33 samples.

Results

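Genes with many introns were followed through drying and rewetting of larvae of the sleeping chironomid Polypedilum vanderplanki, a midge whose larvae endure near-total loss of body water. The set held 669 of the 28415 counted genes, namely those with a strand in the deposited annotation and a transcript of 12 or more exons. They were chosen on gene structure alone, and no expression value entered the choice. The 18896 stranded genes of 2 to 11 exons served for comparison.

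Polyadenylated RNA was measured in libraries from whole larvae of inbred lines reared on agar with milk, and every group, the undried larvae included, had this same background. Of the 10 drying times, those at 8, 12, 16, 24 and 40 h had 3 libraries each, those at 32 and 36 h had 1, and 0, 1 and 48 h had 2. Of the 7 rewetting times, 0 and 3 h had 2 libraries, and 1, 6, 12, 24 and 48 h had 1. The labels do not say how many larvae made up a library or whether libraries of a time came from separate animals, so the p-values describe the spread among these libraries, which may be technical. Each library pooled all tissues of the larva, and fewer cells that use a gene cannot be told apart from less of its RNA per cell.

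An intron is transcribed with its gene and removed by the spliceosome, a machine of small nuclear RNAs and proteins, before the messenger RNA leaves the nucleus. Each intron gives a point at which exons can be joined in more than one way, so genes with many introns can yield many transcripts. Such genes also tend to be long and take longer to transcribe than short ones, and in insects the stress-induced heat shock genes are known for having few introns or none. The gene IDs in the deposited files carry no gene names and none matched the reference table, so the members are given by ID and position, without a function.

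The intron-rich genes were long and had many annotated transcripts. The transcript with the most exons had a median of 14 exons in the set, against 3 in the genes of 2 to 11 exons. Its exons summed to a median of 4395 bases, against 1210 bases. Its introns summed to a median of 7716 bases, against 259 bases, and the gene as a whole spanned 13141 bases, against 1747. The median intron within a gene differed less, with a median over genes of 93 bases in the intron-rich genes and 75 in the comparison genes. Its upper quartile over genes was 196 and 187.5 bases. The median exon within a gene was shorter in the intron-rich genes, with a median over genes of 182 bases against 279. The set had a median of 4 annotated transcripts per gene, against 1, and only 113 members had a single transcript.

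Most members lay just above the minimum of 12. The set held 432 genes of 12 to 15 exons, 166 of 16 to 20, 56 of 21 to 30 and 15 of 31 or more. They were spread over 250 scaffolds, with the highest number, 26, on scaffold 261 and 20 on scaffold 1299. Plus and minus strands were nearly even, with 342 and 327 genes. Of the members, 62.5% overlapped another gene model and 50.7% one on the opposite strand, against 42.0% and 37.5% of the comparison genes. Since the sources used here do not say whether counting used strand, reads of such overlapping genes may not be separable.

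The 5 members with the most exons differed widely in shape. PvG034967 had 90 exons on the minus strand of scaffold 9508 (445285 to 464271), with only 4687 exonic bases in a span of 18987, and no other gene model overlapped it. PvG030983 had 50 exons on the plus strand of scaffold 77883 (25954 to 39772) and a single annotated transcript. PvG007372 had 40 exons on the minus strand of scaffold 1575 (2666 to 61561) and 7344 annotated transcripts, the highest number in the set. PvG028355, also with 40 exons, held 16274 exonic bases in a span of 21668 on the plus strand of scaffold 669 (518092 to 539759). PvG032718 packed 38 exons and 1756 exonic bases into 6682 bases of scaffold 805 (58292 to 64973, plus strand). The set therefore ranged from genes of long exons and short introns to genes of many very short exons.

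Members were expressed more strongly per gene than the comparison genes. A mean of at least 5 CPM (counts scaled to a common library total and here also by TMM factors that set libraries to a common level across genes) was reached by 75.2% of the intron-rich genes and 40.9% of the comparison genes. A mean of at least 100 CPM was reached by 19.3% against 5.89%. CPM grows with transcript length, so this comparison is of counts and not of transcript numbers. A count was present in all 32 libraries for 81.3% of the intron-rich genes and 49.2% of the comparison genes. Expression was high enough for testing in 649 members, and the other 20 were not tested.

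The 3 most abundant members per kilobase of exon all rose between 24 and 40 h of drying, though calls for 2 of them depended on scaling and on single libraries. PvG014961 (scaffold 2670, 27561 to 48293, minus strand, 17 exons) averaged 799 CPM per kilobase of exon and was the top member in every library but replicate 3 at 16 h. It had 2520, 2990 and 3310 CPM at 24 h of drying, against 7500 and 8820 CPM at 0 h. At 40 h it had 5680, 7550 and 15300 CPM, all above the 24 h libraries (log2 fold change 1.64 ± 0.34 SE, edgeR adjusted p = 0.00215). PvG028151 (scaffold 6575, 1331 to 18602, plus strand, 14 exons) averaged 386 CPM per kilobase. It had 2010, 2540 and 4060 CPM at 40 h, against 1090, 1330 and 1390 CPM at 24 h (log2 fold change 1.15, adjusted p = 0.00901). PvG024683 (scaffold 505, 101722 to 117171, minus strand, 14 exons) averaged 336 CPM per kilobase and had 742, 1010 and 1710 CPM at 40 h, against 619, 626 and 705 CPM at 24 h (log2 fold change 0.78, adjusted p = 0.038). In none of the 3 did the libraries of 40 and 24 h overlap. The rise of PvG014961 was not called by DESeq2. With total counts in place of TMM factors, the rises of PvG028151 and PvG024683 were not called, nor that of PvG024683 without a filter. The call for PvG028151 ended without replicate 3 at 24 h or replicate 1 at 40 h, and that for PvG024683 without either of these, replicate 1 at 24 h or replicate 3 at 40 h. The fall of PvG014961 at 24 h against 0 h passed (adjusted p = 0.0374), yet not under DESeq2 (0.316), without a filter (0.1), in batch 1 alone (0.114), with the library of conflicting durations set to 48 h (0.0516), without either 0 h library or without replicates 1 or 3 at 24 h.

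Depth and library quality were as follows. The smallest library held 15015674 counts, the largest 34179203 and the median one 25176108. Members took between 4.07% and 8.73% of the counts, and between 594 and 661 of them had a count. The batch 2 library at 1 h of rewetting was left out of all results: 341 members had a count in it and they held 0.358% of its counts. When it was included, few members were called: 8 rose and 2 fell at 40 h against 24 h of drying, against 172 and 55 without it, and most calls for the genes named below ended. TMM factors lay between 0.987 and 1.22 from 0 to 36 h of drying, between 0.543 and 0.869 at 40 and 48 h of drying and at 0 and 1 h of rewetting, and between 1.11 and 1.55 from 3 h of rewetting on. Changes between these periods therefore depend on the scaling.

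The median member stayed within 0.44 of the 0 h mean on the log2 scale in each library but that of 24 h of rewetting, and the spread among members was larger in each library from 36 h of drying to 6 h of rewetting than in any library from 0 to 32 h of drying. The median member lay 0.04 above and 0.04 below the 0 h mean on the log2 scale in the 2 libraries of 0 h themselves. Between 8 and 36 h of drying it lay between -0.25 and 0.20. At 40 h it stood at 0.19, 0.24 and 0.31, and at 48 h at -0.11 and 0.44. At 0 h of rewetting it stood at 0.26 and 0.30, at 1 h at 0.34, and at 3 h at 0.14 and 0.19. It was 0.17 at 6 h, 0.04 at 12 h, -0.81 at 24 h and 0.11 at 48 h of rewetting. The interquartile range of the members' differences was between 0.72 and 1.13 from 8 to 24 h of drying and between 1.40 and 2.02 at 40 and 48 h. It was between 1.64 and 1.87 at 0 and 1 h of rewetting, between 1.30 and 1.40 at 3 and 6 h, 1.46 at 24 h and 0.87 at 48 h.

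**Figure D1:**
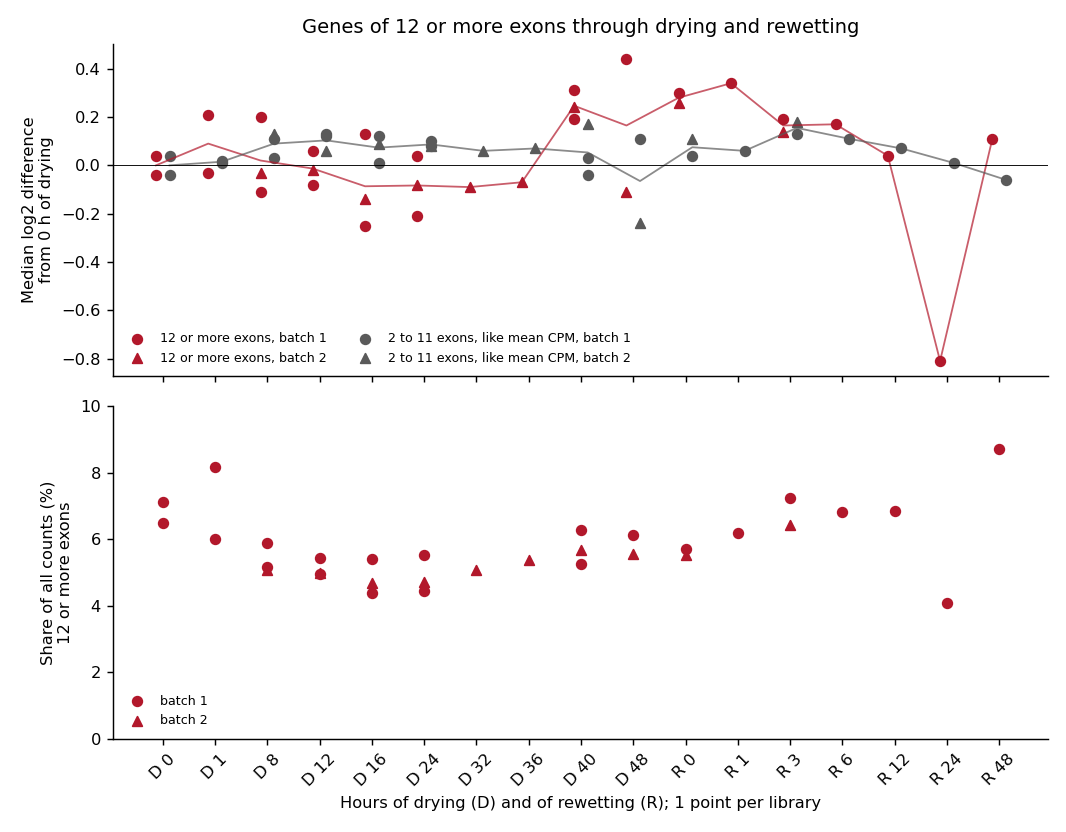
Upper panel: the median log2 CPM difference from the 0 h drying mean in each library for genes of 12 or more exons (red) and for genes of 2 to 11 exons averaged over the same mean CPM bins (grey). The x axis gives hours of drying (D) and rewetting (R), lines join the means of each time, and circles and triangles mark batches 1 and 2. Lower panel: the share of all counts, without TMM scaling, that fell in genes of 12 or more exons. The red points lie below the grey ones in the libraries from 12 to 36 h of drying, except replicate 1 at 16 h (0.13 and 0.12), and farthest below at 24 h of rewetting, at -0.81. The share of counts lies between 4.07% and 8.73%.

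Set against genes of 2 to 11 exons of like mean CPM, the intron-rich genes lay lower from 12 to 36 h of drying, in every library, and higher in most libraries of the dry state. For this comparison, members and comparison genes were sorted into 10 bins of mean CPM, and the difference of the medians was averaged over bins. The difference averaged -0.19 ± 0.11 at 24 h (SD, n = 3) and -0.21 ± 0.17 at 16 h (SD, n = 3). It was -0.15 in the single libraries of 32 and of 36 h. At 40 h it was 0.16 ± 0.10 (SD, n = 3), at 48 h 0.14 ± 0.29 (SD, n = 2) and at 0 h of rewetting 0.16 ± 0.06 (SD, n = 2). The libraries at 24 h lay between -0.30 and -0.09 and those at 40 h between 0.07 and 0.26, so these times did not overlap. The 2 libraries at 48 h disagreed, with 0.35 in replicate 1 of batch 1 and -0.06 in replicate 2 of batch 2. Within a time, the difference varied with a pooled SD of 0.138 between libraries.

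Early drying was examined at 24 h against 0 h. Few members were called, and whether more rose or more fell depended on the settings. Of the 649 tested members, 25 rose and 26 fell at an adjusted p under 0.05, which is 3.85% and 4.01%, against 4.59% and 2.93% of all 17789 tested genes. Comparison genes of like CPM rose in 9.36% and fell in 4.61%, averaged over the bins. The median log2 fold change was -0.05 in the members, 0.06 in comparison genes of like CPM and 0.01 in all tested genes. With total counts only 10 rose and 55 fell, with a replicate block 48 rose and 31 fell, and with a minimum mean of 5 CPM 27 rose and 53 fell. DESeq2 called 30 higher and 46 lower, and batch 1 alone gave 6 and 8. The counts also rested on single libraries: without replicate 1 at 0 h 9 members rose and 7 fell, and without replicate 2 at 0 h 12 fell. Without replicates 1, 2 or 3 at 24 h 12, 12 and 18 rose, while 16, 16 and 8 fell. Earlier times gave 3 members higher and 0 lower at 1 h (background 0.944% and 0.0337%, with 59 members at an unadjusted p under 0.05 in either direction), and 40 higher and 22 lower at 8 h (background 5.19% and 3.07%). At 12 h 21 members rose and 16 fell (background 4.14% and 2.22%), and at 16 h 30 rose and 39 fell (background 4.97% and 3.52%).

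For each comparison, the largest changes named here are those among members that passed the test with at least a 2-fold change, a mean of at least 5 CPM in whichever group was higher and groups whose libraries did not overlap. The largest such rise at 24 h was that of PvG030749, a gene of 17 exons on the plus strand of scaffold 77876 (192261 to 231292) that a gene on the opposite strand overlaps. It had 145, 159 and 183 CPM at 24 h, against 38.3 and 44.0 CPM at 0 h. All libraries of 24 h lay above both of 0 h (log2 fold change 2.06 ± 0.32 SE, adjusted p = 0.000269). It had 103 CPM in the library of 32 h, 275 CPM in that of 36 h and 446 and 580 CPM at 48 h, and stood at 69.6 CPM at 24 h and 80.4 CPM at 48 h of rewetting. PvG029804 (scaffold 7642, 1411 to 6228, minus strand, 12 exons) had 4.35, 4.67 and 6.80 CPM at 24 h, against 1.14 and 1.92 CPM at 0 h. Its call (log2 fold change 1.98, adjusted p = 0.0393) ended with total counts only, without the batch term, in batch 1 alone, with a replicate block, without either 0 h library or without replicates 2 or 3 at 24 h.

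The largest such falls at 24 h were those of PvG003512 and PvG010336. PvG003512 (scaffold 1254, 395214 to 406953, minus strand, 17 exons) had 0.994, 1.02 and 8.17 CPM at 24 h, against 18.2 and 22.5 CPM at 0 h (log2 fold change -2.53, adjusted p = 0.0355). It had 53.8 and 60.2 CPM at 24 and 48 h of rewetting, above both 0 h libraries. PvG010336 (scaffold 199, 328966 to 337158, minus strand, 12 exons) had 21.7, 53.5 and 61.6 CPM at 24 h, against 149 and 224 CPM at 0 h (log2 fold change -2.13, adjusted p = 0.0164). In both genes the groups did not overlap, and 1 library of 24 h stood apart from the other 2, high in PvG003512 and low in PvG010336. Both calls ended in batch 1 alone, and that of PvG003512 without a filter. The call of PvG003512 also ended without either 0 h library or without replicates 1 or 2 at 24 h, and that of PvG010336 without replicate 2 at 0 h or replicate 1 at 24 h.

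Late drying was examined at 40 h against 24 h, which shares no library with the rewetting comparison. With TMM factors intron-rich genes rose more often than they fell, but with total counts only they fell more often, with 67 higher and 126 lower. Of the members, 172 rose and 55 fell, which is 26.5% and 8.47%, against 10.2% and 8.76% of all tested genes. In comparison genes of like CPM the shares were 19.1% and 11.1%. The median log2 fold change was 0.41 in members, 0.00 in comparison genes of like CPM and -0.07 in all tested genes. With total counts in place of TMM factors the member median turned to -0.11, that of all tested genes moved to -0.58, and 34.7% of the members called were higher, against 75.8% with TMM factors. The difference from comparison genes of like CPM was 0.39 with both. Without replicates 1 or 2 at 24 h or replicate 3 at 40 h, the falls numbered 29, 33 and 33, while rises stayed between 122 and 158 over all libraries left out in turn.

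PvG005937 and PvG000251 had the largest such rises at 40 h. PvG005937 (scaffold 1423, 304838 to 310846, minus strand, 13 exons) had 4.69, 5.75 and 7.60 CPM at 40 h, against 0.476, 0.499 and 1.99 CPM at 24 h (log2 fold change 2.62 ± 0.63 SE, adjusted p = 0.0041). Within batch 1 alone its adjusted p was 0.066. PvG000251 (scaffold 1009, 120177 to 131934, plus strand, 13 exons, overlapped by a gene on the opposite strand) had 277, 333 and 436 CPM at 40 h, against 51.6, 56.3 and 72.1 CPM at 24 h (log2 fold change 2.53 ± 0.23 SE, adjusted p = 5.11e-08). The step lay between neighbouring times of batch 2, with 59.6 CPM in the library of 32 h and 382 CPM in that of 36 h. PvG000251 was at 141 and 148 CPM at 3 h of rewetting and at 14.6 and 22.7 CPM at 24 and 48 h of rewetting, below its 23.2 and 24.6 CPM at 0 h of drying.

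PvG022955 and PvG034933 had the largest such falls at 40 h. PvG022955 (scaffold 449, 71550 to 90172, plus strand, 12 exons, overlapped by a gene on the opposite strand and by one with no strand) had 0, 1 and 44 counts at 40 h, against 127, 381 and 396 counts at 24 h (log2 fold change -4.07 ± 0.79 SE, adjusted p = 0.00126). The 44 counts, or 2.11 CPM, belonged to the batch 2 library whose title gives 40 h and whose duration label gives 48 h. PvG034933 (scaffold 9508, 43942 to 54610, minus strand, 12 exons, overlapped on both strands) had 0.563, 1.33 and 9.39 CPM at 40 h, against 22.0, 34.2 and 40.0 CPM at 24 h (log2 fold change -3.33 ± 0.56 SE, adjusted p = 0.000351). The 9.39 CPM came from that same library. Both genes were thus lowest in the 2 batch 1 libraries at 40 h, and the libraries of 40 and 24 h did not overlap.

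**Figure D2:**
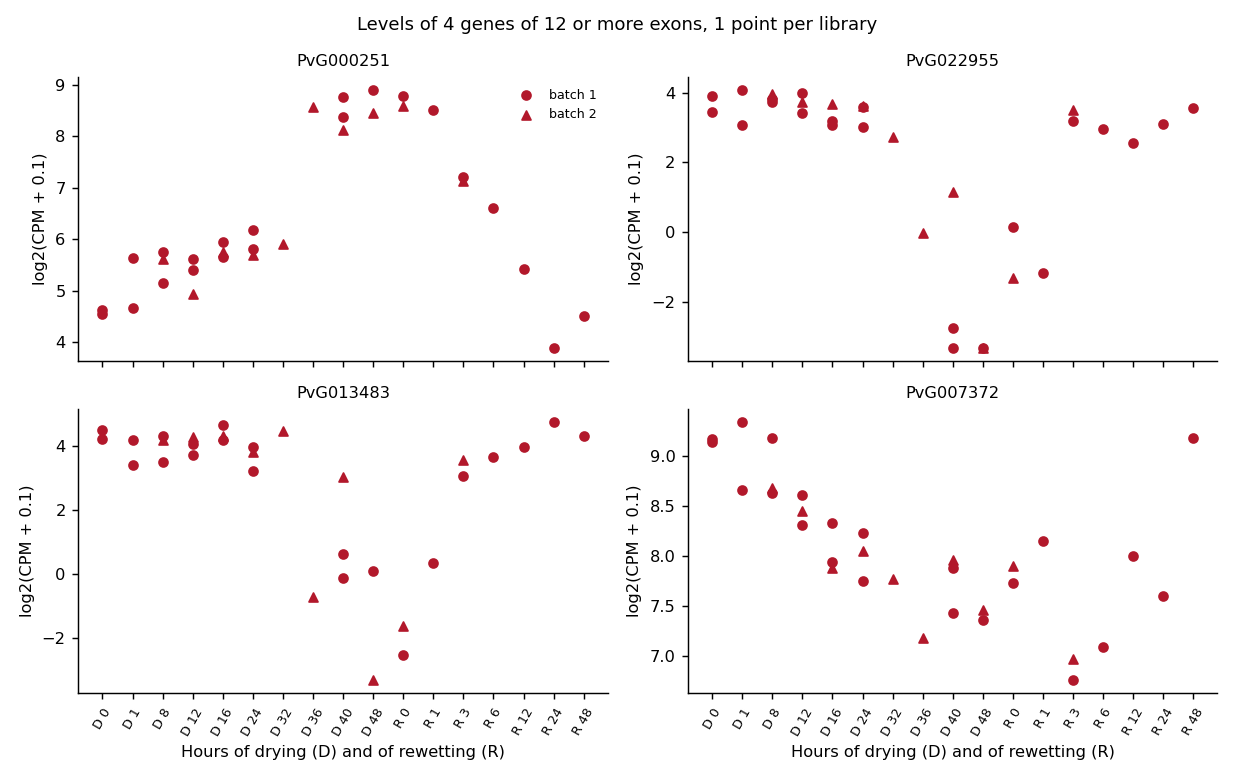
Levels of 4 intron-rich genes as log2 of TMM-scaled CPM plus 0.1, against hours of drying (D) and rewetting (R), with 1 point per library and circles and triangles for batches 1 and 2. PvG000251 stands highest between 36 h of drying and 1 h of rewetting, PvG022955 and PvG013483 are lowest there, and PvG007372, a gene of 40 exons, has 108 and 125 CPM at 3 h of rewetting and 583 CPM at 48 h of rewetting.

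The dry state was examined at 48 h of drying against 0 h. With TMM factors 175 members rose and 106 fell (70 and 268 with total counts only), against 15.1% and 18.2% of all tested genes and 26.5% and 20.4% of comparison genes of like CPM. The rises made up 27.0% of the tested members. The rise was thus as frequent in the members as in comparison genes of like CPM. The median log2 fold change was 0.21 in members, -0.09 in comparison genes of like CPM and -0.28 in all tested genes. With total counts only, the member median was -0.76 and that of all tested genes -1.23, and 20.7% of the members called were higher, against 62.3% with TMM factors. At 40 h against 0 h, 168 rose and 84 fell, or 25.9% and 12.9% (background 14.2% and 13.7%). In comparison genes of like CPM the shares were 24.8% and 16.8%. Between the end of drying and 0 h of rewetting, edgeR called 0 members in either direction, with 26 at an unadjusted p under 0.05 and a background of 0.00562% higher. Without replicate 1 at 48 h 114 rose and 137 fell and the difference from comparison genes was 0.06, against 0.28 with all libraries, and without replicate 2 at 48 h 65 fell.

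In the dry state PvG026718 (scaffold 5872, 167 to 14340, plus strand, 14 exons) had 69.4 and 82.5 CPM at 48 h, against 1.62 and 6.04 CPM at 0 h (log2 fold change 4.31 ± 0.82 SE, adjusted p = 0.000658). PvG000251 had 348 and 477 CPM at 48 h, against 23.2 and 24.6 CPM (log2 fold change 4.22 ± 0.31 SE, adjusted p = 8.35e-10). Of the falls, PvG022955 had 0 counts in both libraries of 48 h and 804 counts in the 2 libraries of 0 h. Relative to total counts, without TMM factors, this makes it at least 290-fold lower at a floor of 3 counts over the group. PvG025577 (scaffold 528, 811485 to 823489, plus strand, 12 exons) had 1 count at 48 h and 553 counts at 0 h, and the ratio of 0 h to 48 h was 599 (95% interval from counting error alone, 107 to 23700). Both falls passed the test (adjusted p = 6.5e-05 and 1.26e-06). The 4 calls held under each alternative run, except that PvG025577 was not tested when a mean of at least 5 CPM was required.

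Among the 5 members with the most exons, the courses differed. PvG034967 had 6.99 and 24.7 CPM at 48 h, against 118 and 127 CPM at 0 h (log2 fold change -2.96 ± 0.73 SE, adjusted p = 0.00547), a call that ended in batch 1 alone and without replicate 2 at 48 h. PvG030983 had 254 and 360 CPM at 48 h, against 785 and 1180 CPM at 0 h (log2 fold change -1.76, adjusted p = 9.15e-06). PvG007372 fell earlier, with 215, 266 and 301 CPM at 24 h, against 567 and 579 CPM at 0 h (log2 fold change -1.14, adjusted p = 0.00228). PvG028355 went the other way, with 868 and 1370 CPM at 48 h, against 310 and 399 CPM at 0 h (log2 fold change 1.78, adjusted p = 0.0004). PvG032718 had 101 and 245 CPM at 48 h, against 306 and 377 CPM at 0 h, and did not pass (log2 fold change -0.81, adjusted p = 0.0853). At 48 h of rewetting all 5 stood above their lower 0 h library, at 149, 1210, 583, 425 and 358 CPM in the order given here.

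Rewetting was examined at 3 h against 0 h of rewetting. With TMM factors more members fell than rose, but with total counts only 208 rose and 8 fell, and in batch 1 alone, with 1 library per time, 25 rose and 19 fell. With TMM factors 64 rose and 110 fell, which is 9.86% and 16.9%, against 9.84% and 9.04% of all tested genes. Comparison genes of like CPM fell in 19.5%, so the falls were no more frequent in the members than in those. The median log2 fold change was -0.31 in members, -0.05 in comparison genes of like CPM and 0.08 in all tested genes. The direction depended on scaling: with total counts only the member median was 0.61 and that of all tested genes 0.99, and 96.3% of the members called were higher. With upper quartile scaling 25.5% were, and with TMM factors 36.8%. Leaving out any of the 4 libraries lowered both counts, to between 33 and 39 higher and between 49 and 65 lower. With replicates 1 and 2 at 0 h and at 3 h left out in that order, 33, 37, 39 and 36 rose, and 65, 54, 62 and 49 fell.

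PvG013483 and PvG034058 had the largest such rises on rewetting. PvG013483 (scaffold 251, 101331 to 105710, plus strand, 13 exons) had 8.21 and 11.8 CPM at 3 h, against 0.072 and 0.226 CPM at 0 h of rewetting (log2 fold change 6.04 ± 1.14 SE, adjusted p = 0.00131). These levels rest on 633 counts at 3 h and 4 counts at 0 h. PvG034058 (scaffold 865, 68511 to 76089, minus strand, 13 exons) had 27.6 and 34.3 CPM at 3 h, against 0.432 and 0.602 CPM at 0 h (log2 fold change 5.92 ± 0.81 SE, adjusted p = 4.23e-05). Its 3 h level was also above the 9.32 and 11.1 CPM of undried larvae, while PvG013483 at 3 h lay below its 18.6 and 22.6 CPM there. Neither gene is overlapped by another gene model, and both calls held under each alternative run.

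PvG006267 and PvG018474 had the largest such falls on rewetting. PvG006267 (scaffold 1449, 96626 to 181590, plus strand, 15 exons, 81387 bases of intron) had 0.886 and 0.995 CPM at 3 h, against 4.37 and 6.98 CPM at 0 h (log2 fold change -2.62 ± 0.89 SE, adjusted p = 0.0407). Its call ended when any 1 of the 4 libraries was left out, with adjusted p between 0.0553 and 0.25, and also with total counts only, without a filter and in batch 1 alone. PvG018474 (scaffold 336, 915553 to 1023370, plus strand, 12 exons, 89784 bases of intron) had 18.3 and 33.8 CPM at 3 h, against 97.2 and 102 CPM at 0 h (log2 fold change -1.96 ± 0.29 SE, adjusted p = 7.9e-05). Both genes have spans far above the set's median of 13141 bases. Of the 5 members with the most exons, 4 fell at 3 h. PvG030983 had 110 and 153 CPM at 3 h, against 424 and 502 CPM at 0 h (log2 fold change -1.82, adjusted p = 3.38e-05). PvG032718 had 31.5 and 68.2 CPM, against 138 and 161 CPM (log2 fold change -1.70, adjusted p = 0.0021), and did not pass in batch 1 alone, without replicate 2 at 0 h or without replicate 2 at 3 h. PvG007372 and PvG028355 fell by 0.96 and 1.08 on the log2 scale (adjusted p = 0.00862 and 0.0269). Neither was called with total counts only or in batch 1 alone, nor PvG028355 without a filter. The call of PvG007372 also ended without replicate 2 at 0 h or replicate 1 at 3 h, and that of PvG028355 when any 1 of the 4 libraries was left out. PvG034967, at 10.2 and 14.7 CPM against 9.28 and 24.8 CPM, did not pass (adjusted p = 0.738).

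Members that rose late in drying were often those that fell on rewetting. Of the 172 members higher at 40 h than at 24 h, 73 (42.4%) were lower at 3 h than at 0 h of rewetting, and 2 were higher. These 73 made up 66.4% of the 110 members lower on rewetting. In all tested genes, 51.6% of the 1609 genes lower on rewetting had been higher at 40 h. Of the 55 members lower at 40 h, 25 (45.5%) were higher at 3 h of rewetting, and 1 was lower. In all tested genes, 45.7% of the 1820 genes higher at 40 h were lower on rewetting and 42.9% of the 1559 genes lower at 40 h were higher on rewetting. As a share of the genes called at 40 h, the reversal was therefore about as frequent in the intron-rich genes as in all tested genes. As a share of the falls on rewetting it was larger in the members, of which 26.5% rose at 40 h, against 10.2% of all tested genes. The 172 genes higher at 40 h had a median log2 fold change of -0.74 on rewetting, and 154 of them lay below 0. Over all 649 tested members the median was -0.31.

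**Figure D3:**
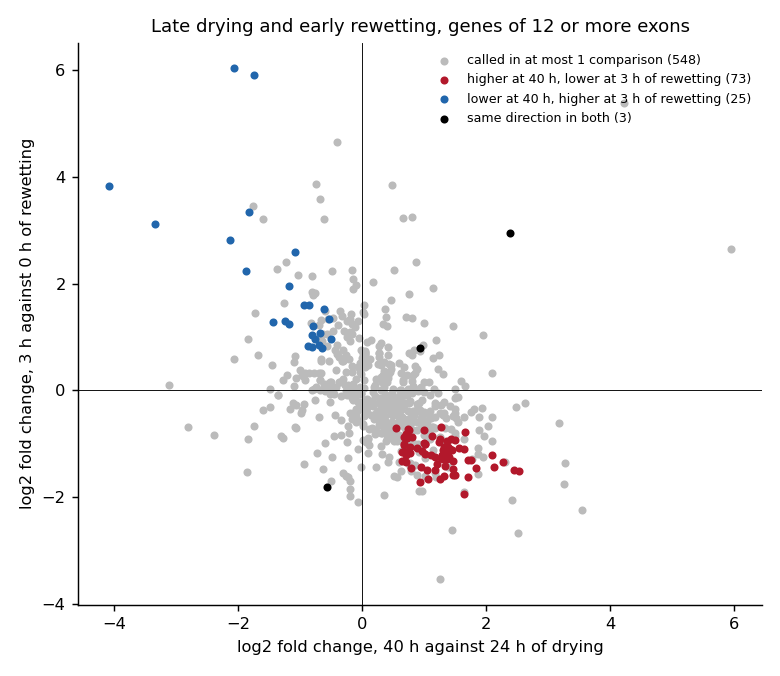
Each point is a tested gene of 12 or more exons, with its log2 fold change at 40 h against 24 h of drying on the x axis and at 3 h against 0 h of rewetting on the y axis. Red points (73) were called higher at 40 h and lower on rewetting, blue points (25) lower at 40 h and higher on rewetting, black points (3) in the same direction in both, and grey points in at most 1 of the comparisons. Red points fill the lower right and blue points the upper left.

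Recovery was examined at 24 and 48 h of rewetting, 1 library each, against 0 h of drying. Of the members 19 rose and 113 fell, which is 2.93% and 17.4%, against 3.37% and 6.96% of all tested genes and 5.42% and 11.1% of comparison genes of like CPM. The median log2 fold change was -0.45 in members, -0.14 in comparison genes of like CPM and -0.15 in all tested genes. Most of the falls depended on 1 library. At 24 h of rewetting the median member was 0.81 below the 0 h mean, 44.8% of members were at least 2-fold lower and 6.78% at least 2-fold higher, against 18.2% and 17.1% of comparison genes of like CPM. At 48 h of rewetting the median member was 0.11 above the 0 h mean, and 6.32% were at least 2-fold lower, against 13.9% of comparison genes. Without the 24 h library 16 members rose and 8 fell, and the difference from comparison genes was 0.19 in place of -0.35. Without the 48 h library 10 rose, 202 fell and the difference was -0.91, and without replicate 1 or 2 at 0 h 75 fell each time, with 5 and 13 higher.

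In the 24 h rewetting library, longer genes were lower, taking members and comparison genes together. Spearman's rho between exonic length and the difference from 0 h was -0.30 there and between -0.10 and 0.19 in every other library. It covered the 8266 tested genes of 2 or more exons with a mean log2 CPM of at least 2, and these share a library and its depth. Over the 649 tested members alone, rho with exonic length was -0.11 for the change over both recovery libraries. Of the members, 321 (49.5%) had their lowest mean level of all times in the 24 h rewetting library, against 16.0% of comparison genes of like CPM. Members took 4.07% of its counts, the lowest share of any library used, against 8.73% at 48 h of rewetting, the highest. With 1 library at each of these times, the time and the library cannot be told apart.

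Of the 4 genes named for recovery, 3 depended on the same library. PvG006910 (scaffold 151, 187707 to 256722, plus strand, 18 exons) had 0 and 2.55 CPM at 24 and 48 h of rewetting, against 5.28 and 6.73 CPM at 0 h of drying (adjusted p = 3.04e-05). Without the 24 h library its adjusted p was 0.298. PvG032115 (scaffold 78037, 34470 to 41211, minus strand, 14 exons) had 1.17 and 2.08 CPM, against 8.05 and 29.0 CPM at 0 h (log2 fold change -3.57 ± 0.59 SE, adjusted p = 0.000378), and was still called with either recovery library left out. PvG006501 (scaffold 145, 981178 to 986688, minus strand, 14 exons) had 16.4 and 5.65 CPM at 24 and 48 h of rewetting, against 0 and 0.601 CPM (log2 fold change 4.95 ± 1.23 SE, adjusted p = 0.0118). PvG033079 (scaffold 820, 71770 to 75253, minus strand, 13 exons) had 42.0 and 4.38 CPM, against 1.97 and 2.37 CPM (log2 fold change 2.64 ± 0.65 SE, adjusted p = 0.0127). Its highest levels were 82.4 CPM in each of the 2 libraries at 3 h and 79.0 CPM at 6 h of rewetting. Without the 24 h library the adjusted p was 0.0796 for PvG006501 and 0.575 for PvG033079, and both calls also ended without replicate 1 at 0 h, that of PvG033079 without replicate 2 as well.

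The share of genes called changed with the number of exons. At 40 h against 24 h, 7.40% of tested genes of 2 to 3 exons rose, 12.7% of those of 4 to 6 and 17.2% of those of 7 to 11. Within the set, 23.9% of the genes of 12 to 15 exons rose, 30.5% of those of 16 to 20 and 32.9% of those of 21 or more. At 3 h of rewetting the share that fell was 8.06%, 11.3% and 12.8% below 12 exons and 14.2%, 19.5% and 27.1% above. Among genes with a mean log2 CPM of at least 2, that share was 17.3%, 17.4% and 17.6% below 12 exons and 18.6%, 23.4% and 31.7% above, so it was nearly level up to 15 exons. The share that rose at 40 h was 14.5%, 19.2% and 23.3% below 12 exons and 30.8%, 34.3% and 38.3% above among these genes. Genes just below and just above the minimum of 12 were compared without a test. The median log2 fold change at 40 h was 0.12 in genes of 10 exons, 0.16 in those of 11, 0.31 in those of 12 and 0.46 in those of 13.

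**Figure D4:**
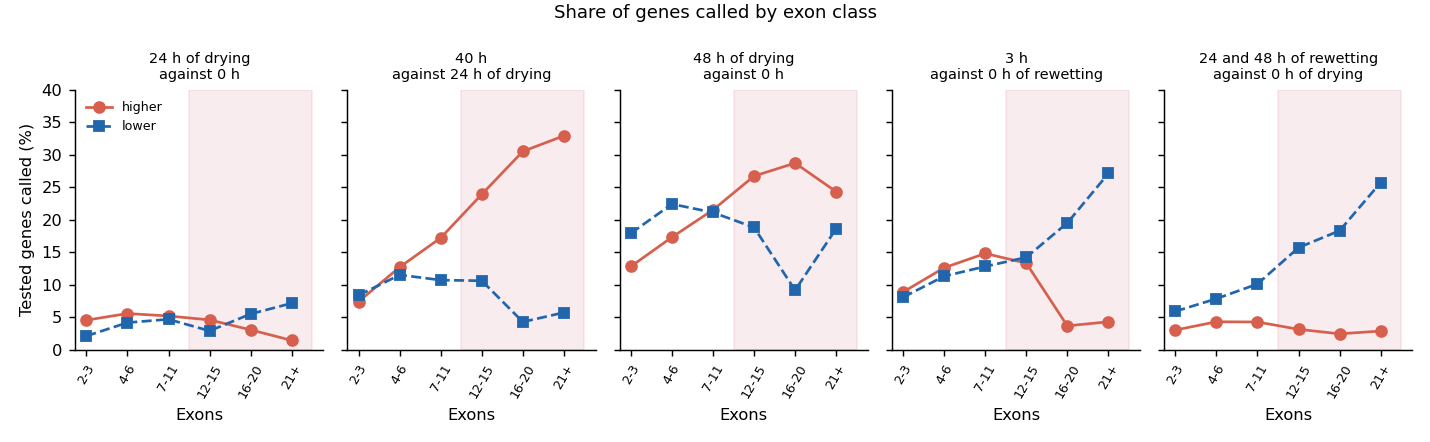
Share of tested genes called higher (red circles) or lower (blue squares) at an adjusted p under 0.05, in percent, by the number of exons, with 1 panel per comparison and the classes of 12 or more exons shaded. At 40 h against 24 h the share higher is 7.40% at 2 to 3 exons and 32.9% at 21 or more, and at 3 h of rewetting the share lower is 8.06% and 27.1%.

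Genes with more exons also had longer transcripts, and length was related to the fold changes at 40 h. Over the tested members, Spearman's rho of the change at 40 h was 0.21 with exonic length, 0.19 with intron length, 0.07 with exon number and 0.03 with mean level; the genes share the same libraries. Among genes of a mean log2 CPM of at least 2 and of 3000 to 4500 exonic bases, the median log2 fold change at 40 h was 0.31 in 144 members and 0.13 in 946 comparison genes. For those over 6500 bases it was 0.64 in 146 members and 0.41 in 110 comparison genes. Long genes thus had higher values in both sets. When mean CPM bins were crossed with exonic length, the difference between members and comparison genes was 0.17 at 40 h against 24 h, in place of 0.39, and 0.01 at 48 h against 0 h, in place of 0.28. At 3 h of rewetting it was -0.22 both ways.

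**Figure D5:**
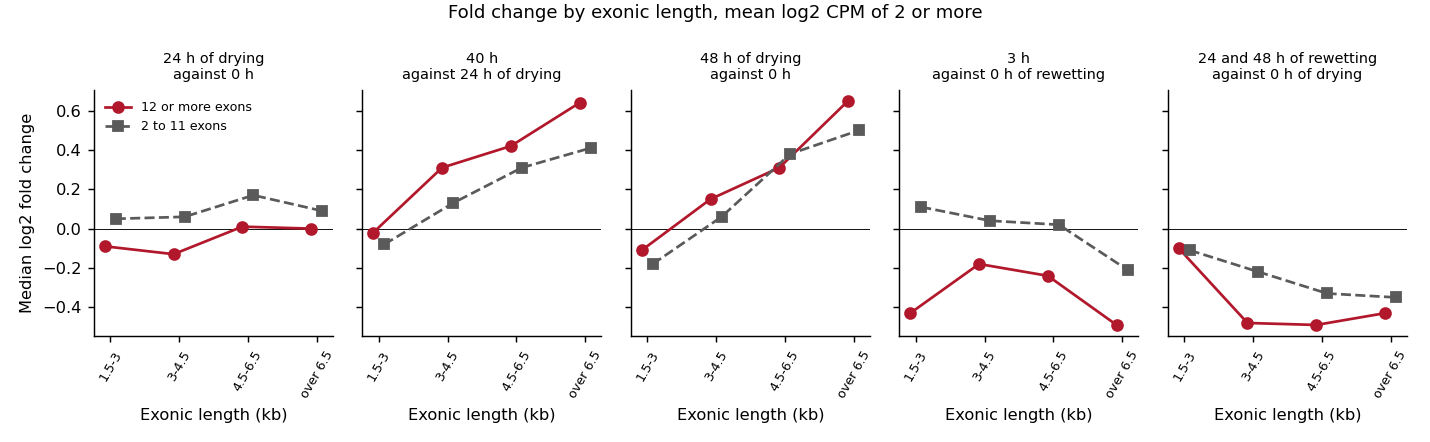
Median log2 fold change by exonic length in kilobases for genes of 12 or more exons (red circles) and 2 to 11 exons (grey squares), with 1 panel per comparison, among genes with a mean log2 CPM of 2 or more. At 40 h against 24 h both lines climb with length, with 0.64 in members and 0.41 in comparison genes over 6.5 kb, and at 3 h of rewetting the members lie below the comparison genes in all 4 length classes.

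The difference at 40 h also varied with level. In the 4 lowest bins, up to a mean of 13.6 CPM, the median member was 0.69, 0.87, 0.80 and 0.75 above the median comparison gene. In the 4 highest bins, from 37.0 CPM on, the difference was 0.05, 0.11, 0.01 and 0.12. In the lowest bin only 3.08% of members were called higher, while in the highest bin 64.6% were, against 50.7% of the comparison genes there. At 3 h of rewetting the difference was between -0.66 and -0.54 in the 4 lowest bins and between 0.06 and 0.29 in the 4 highest. In the 4 highest bins the differences at 40 h were all smaller than the pooled SD of 0.138 between libraries of a time.

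Members with more intron sequence rose more often in late drying. At 40 h against 24 h, 36.1% of the 158 tested members with over 20000 bases of intron rose, 27.0% of the 163 with 8000 to 20000, 25.6% of the 223 with 2000 to 8000 and 13.3% of the 105 with up to 2000. At 3 h of rewetting 23.4% of the first of these classes fell and 14.3% of the last. The 172 members higher at 40 h had a median intron total of 12024.5 bases and a median of 67.8 in mean CPM, against 7300 bases and 33.4 CPM in the 55 lower ones. The 26 members lower at 24 h had a median intron total of 10455 bases, and the 25 higher ones had 3152, though these calls changed with the settings. Over all 649 tested members, Spearman's rho between intron total and the change at 24 h was 0.0.

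Position on the scaffold showed mixed courses. On scaffold 261, 10 of its 26 members rose and 2 fell at 40 h against 24 h (26.5% and 8.47% of all tested members, and 10.2% and 8.76% of all tested genes), with log2 fold changes between -1.82 and 1.64. On scaffold 1299, 2 of 20 rose and 2 fell, between -1.84 and 2.31. Of the 10 members of scaffold 679, 9 were tested, of which 4 rose at 40 h, with log2 fold changes between -0.21 and 1.51. Scaffolds 261 and 1299 thus held members that rose and members that fell.

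Across all times, the set was neither more nor less variable than comparison genes. The difference between the highest and lowest mean level over times had a median of 2.49 on the log2 scale in members and 2.51 in comparison genes of like CPM. It was 4 or more in 130 of the 649 tested members and in 20.8% of comparison genes, averaged over bins, and under 1 in 3.24% and 4.01%. The highest level of a member fell between 36 h of drying and 1 h of rewetting in 43.1% of cases, against 39.0% of comparison genes. It fell at 48 h of rewetting in 17.3%, against 8.82%.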

How the data were processed

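Libraries were prepared with a TruSeq kit from polyadenylated RNA of whole larvae, per the labels' protocols. The authors deposited a table of raw read counts per gene, which was used as it stood. The aligner was TopHat2, per the submitters' processing notes. The annotation's source column names SAJR. The tool version, the genome build, the counting settings and any use of strand in counting are not given in the sources used here. All count columns were matched to samples.

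Of the 28415 genes, 17789 with at least 1 CPM in at least 2 libraries were tested. Counts of 32 libraries (22 of batch 1, 10 of batch 2) were fitted together in R 4.3.3 with edgeR 4.0.16 (quasi-likelihood test, limma 3.58.1, TMM factors, a term per time and per batch, prior count 2), and p-values were adjusted over all tested genes by the Benjamini-Hochberg method with a threshold of 0.05. The batch 2 library at 1 h of rewetting was left out of every result by the rule that defined the set. Printed CPM are TMM-scaled, and CPM per kilobase uses the union of a gene's exons. Genes of like CPM are comparison genes in the same 10 bins of members' mean CPM, with values averaged over bins. Total counts per library were between 15015674 and 34179203 with a median of 25176108. Counting intervals and floors of 3 counts over a group cover counting error only, since the reads carry no molecular identifiers. They are relative to total counts, without TMM factors. The batch 2 library titled 40 h has a duration label of 48 h and was used as 40 h. Genes named are the 5 members with the most exons, the 3 highest in CPM per kilobase and, for each of 5 comparisons, 2 that rose and 2 that fell most among members with an adjusted p under 0.05, a 2-fold change, a mean of at least 5 CPM in whichever group was higher and groups that did not overlap. The fit was tested on simulated data. Alternatives were other scalings, filters, DESeq2 1.42.0, other batch and replicate terms, other members and libraries left out in turn. Members and lists were chosen with earlier results of these data known.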

Additional observations from a re-analysis of the deposited data

Results flagged for a closer look

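The libraries of 24 and 48 h of rewetting lay on opposite sides of the 0 h drying libraries. The difference of the median log2 change between members and genes of like CPM was -0.89 at 24 h and 0.19 at 48 h. Each time had 1 library, and the difference between them was not tested.

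The batch 2 library at 1 h of rewetting, which entered no comparison, held counts in 341 members. They made up 0.358% of its 16545586 counts.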

How the results depend on the processing

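Over the 5 comparisons, 197 of the values recomputed under an alternative stayed within 1.5 times the reported count or within the spread between libraries, 91 moved and 1 changed sign; where no construction explains a change, the cause was not tested. With total counts only, 10 members were higher and 55 lower at 24 h (reference 0 h), 67 and 126 at 40 h (reference 24 h), 70 and 268 at 48 h (reference 0 h), and 208 and 8 at 3 h of rewetting. Batch 1 alone, which leaves 48 h of drying and 0 and 3 h of rewetting with 1 library each, assumed to vary like the others, gave 6 higher and 8 lower at 24 h, 55 lower at 48 h, 25 higher and 19 lower at 3 h of rewetting, and 12 higher in recovery. With all 33 libraries edgeR gave 0 higher (14 at an unadjusted p under 0.05) and 1 lower at 24 h, 8 and 2 at 40 h, 35 and 21 at 48 h, 5 higher and 0 lower (24 at an unadjusted p under 0.05) at 3 h of rewetting, and 2 and 2 in recovery; DESeq2 without that library gave 30 higher at 24 h and 128 lower at 3 h of rewetting. A minimum mean of 5 CPM gave 53 lower at 24 h and a difference from genes of like CPM of 0.10 at 48 h, and DESeq2 gave 46 lower at 24 h. Sets of other members have other sizes by construction. Genes of 10 or more exons gave 54 higher and 52 lower at 24 h, 281 and 107 at 40 h, 294 and 205 at 48 h, 140 and 183 at 3 h of rewetting, and 37 higher in recovery. Genes of 15 or more exons gave 10 and 16, 86 and 18, 79 and 40, 19 and 60, and 7 and 57. Members overlapping no gene model gave 8 and 12, 52 and 22, 52 and 44, 26 and 29, and 6 and 32, with differences of 0.23 at 40 h and 0.10 at 48 h. With mean CPM crossed with exonic length the difference was 0.17 at 40 h, 0.01 at 48 h and -0.21 in recovery. With each library left out in turn, 9 to 24 rose and 7 to 16 fell at 24 h (difference -0.18 to -0.06), 122 to 158 and 29 to 64 at 40 h (0.34 to 0.44), 114 to 169 and 65 to 137 at 48 h (0.06 to 0.38), 33 to 39 and 49 to 65 at 3 h of rewetting (-0.30 to -0.18), and 5 to 16 and 8 to 202 in recovery (-0.91 to 0.19). Deviations of same-numbered libraries correlated between 0.0753 and 0.16 for numbers 1 and 3 and at 0.128 for 0 and 1 h. These values are low but positive and include counting noise, so they cannot decide whether same-numbered libraries share an origin. A replicate block gave 48 higher and 31 lower at 24 h, 192 and 58 at 40 h, 181 and 98 at 48 h, 71 and 134 at 3 h of rewetting, and 22 and 117 in recovery.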
